A study of Mus musculus with 4 samples.

Results

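Transcripts were measured by RNA-seq in splenic Treg cells to ask how those of 10 amino acid transporters, several of them known MYC targets, differ in Treg cells with a Cre-driven deletion of Setd2, the methyltransferase that places H3K36me3. The transporters were chosen by gene symbol and are 10 of the 24087 genes in the deposited table. They are Slc7a5, Slc3a2, Slc7a1, Slc7a6, Slc7a11, Slc1a5, Slc38a1, Slc38a2, Slc43a1 and Slc1a4. Treg cells were sorted as CD3+CD4+YFP+ from unchallenged C57BL/6 mice. KO mice were Foxp3Cre-YFPSetd2f/f and CTRL mice were their Foxp3Cre-YFPSetd2f/+ littermates, so that both groups carried Cre-YFP, driven from the Foxp3 locus, and the CTRL mice carried 1 floxed Setd2 allele. Each genotype had 2 libraries, each from approximately 1000000 cells pooled from 2 mice, so that the spread between libraries is a spread between pools. The study's methods give a general age of 6 to 12 weeks for its mice, and the labels of these samples give none.

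A T cell that divides or grows must import amino acids, and it does so through a small set of carriers. Slc3a2 encodes the heavy chain of CD98, a glycoprotein that carries no substrate itself but brings light chains to the cell surface. Its light chains include Slc7a5 (LAT1), which exchanges large neutral amino acids such as leucine, Slc7a6 (y+LAT2), which exchanges cationic for neutral amino acids, and Slc7a11 (xCT), which takes up cystine in exchange for glutamate. Slc7a1 (CAT1) imports arginine and lysine without the heavy chain, and Slc43a1 (LAT3) carries branched-chain amino acids by facilitated diffusion. Slc1a5 (ASCT2) and Slc1a4 (ASCT1) exchange small neutral amino acids, and Slc1a5 is a main route for glutamine. Slc38a1 and Slc38a2 (SNAT1 and SNAT2) use the sodium gradient to import glutamine and other small neutral amino acids. Leucine and arginine that enter in this way are sensed upstream of mTORC1, a kinase complex that Treg cells need for their suppressive programme.

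The start regions of the carriers that the results turn on, or that hold a motif of the amino acid or MYC pathways, are shown here. RefSeq start sites on GRCm38.p6 were found for 7 of the 10 transporters, in 9 windows of 250 bases upstream of a start. Capitals mark an ETS motif (CCGGAAG on either strand, a motif common in promoters of T cell genes) in Slc7a6 and Slc3a2, the core of an amino acid response element (TGATGNAA on either strand, the letters bound by ATF4 with its partners) in Slc7a11, and an E-box (CACGTG, the letters bound by MYC) in Slc43a1. Each sequence runs 5′ to 3′ towards a RefSeq start. Those of Slc3a2 and Slc43a1 lie inside the gene as GENCODE spans it, before a start downstream of its outermost end.
Slc7a6, chr8:106168604-106168853, plus strand: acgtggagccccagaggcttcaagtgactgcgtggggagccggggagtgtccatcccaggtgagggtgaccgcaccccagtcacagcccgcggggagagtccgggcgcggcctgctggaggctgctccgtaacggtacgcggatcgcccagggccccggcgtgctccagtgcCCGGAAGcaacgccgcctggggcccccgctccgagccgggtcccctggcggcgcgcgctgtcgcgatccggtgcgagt
Slc3a2, chr19:8713898-8714147, minus strand: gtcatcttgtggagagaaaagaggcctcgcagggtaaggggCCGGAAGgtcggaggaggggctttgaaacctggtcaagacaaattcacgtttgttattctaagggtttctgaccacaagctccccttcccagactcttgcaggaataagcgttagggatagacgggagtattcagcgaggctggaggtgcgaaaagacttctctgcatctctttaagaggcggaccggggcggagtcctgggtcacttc
Slc7a11, chr3:50443614-50443863, minus strand: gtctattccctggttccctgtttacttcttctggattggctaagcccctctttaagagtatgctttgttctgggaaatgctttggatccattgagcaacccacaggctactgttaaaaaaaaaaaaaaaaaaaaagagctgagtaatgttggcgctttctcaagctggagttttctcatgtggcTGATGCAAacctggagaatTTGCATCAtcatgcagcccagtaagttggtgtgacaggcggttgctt
Slc43a1, chr2:84840073-84840322, plus strand: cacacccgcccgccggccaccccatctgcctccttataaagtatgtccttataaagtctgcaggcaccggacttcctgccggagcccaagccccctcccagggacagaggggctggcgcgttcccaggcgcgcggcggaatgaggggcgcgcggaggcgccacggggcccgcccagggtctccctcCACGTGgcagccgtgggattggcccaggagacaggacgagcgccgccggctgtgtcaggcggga
The ETS motif lay 78 to 72 bases before the start shown for Slc7a6, or 145 to 139 bases before the other RefSeq start of that gene, and 209 to 203 bases before the start shown for Slc3a2. Slc7a11 held the amino acid response core on both strands, at 66 to 59 and at 47 to 40 bases before the start. In Slc43a1 the E-box lay 64 to 59 bases before the start. Among 32851 mouse promoter windows of the same length, the ETS motif was present in 6.91%, the amino acid response core in 3.45% and the E-box in 6.02%. The match is one of letters only.

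The targeted gene was examined first. Setd2 was at 23.4 and 25.3 FPKM in the CTRL libraries and 21.3 and 19.5 FPKM in the KO libraries, where FPKM is a fragment count scaled by gene length and library total, as the authors computed it. Pairs of values below are in the order of the replicate numbers. Both KO libraries were below both CTRL libraries, but the difference of -0.24 on the log2(FPKM + 1) scale (SE 0.076) missed the threshold (limma, adjusted p = 0.0970). This value sums reads over the whole gene, so reads from the exons that were not floxed are in it. The CTRL mice also carried a floxed Setd2 allele. For splenic KO Treg cells the study reported abrogated Setd2 protein by flow cytometry and strongly reduced H3K36me3 by western blot. The 5 Treg markers together were at 1068 to 1178 FPKM per library, and the 5 T cell markers at 1274 to 1413 FPKM. Foxp3 was at 120.6 and 139.8 FPKM in CTRL and 111.6 and 119.2 FPKM in KO. Of the 5 Treg markers, Foxp3 and Il2ra were below both CTRL libraries in both KO libraries, against 35.5% of all genes tested. Ikzf2 was above them, against 29.0%, and Ctla4 and Tnfrsf18 overlapped. None of the 5 passed the threshold (limma). Each library rested on at least 30520670 to 33137478 reads recovered from the table. CTRL 1 stood apart with 19100 genes above 0, where the other libraries had 15913 to 16410, although it was the shallowest. Without CTRL 1 the differences given below were -0.36 for Slc7a6, 0.34 for Slc3a2 and 0.11 for Slc1a5 on the log2 scale, none past the threshold (limma, adjusted p = 0.147, 0.318 and 0.363). Of 11399 genes tested with limma, 5.10% were called higher and 4.65% lower in KO at an adjusted p under 0.05. Cell cycle transcripts were higher in KO, with 16 of 20 genes called and summed levels of 670.8 and 566.2 FPKM in CTRL against 942.9 and 926.8 FPKM in KO. Markers of other cells were present too. B cell markers, mostly Ighm, summed to 914.5, 655.7, 1270 and 1180 FPKM in CTRL 1, CTRL 2, KO 1 and KO 2. The 7 myeloid markers summed to 245.6, 150.4, 316.4 and 123.5 FPKM in the same order, and no marker of any list was at 0 in all 4 libraries. The part of these cells and of cycling cells in the values below was not tested, and in bulk RNA fewer cells of a type and less RNA per cell cannot be told apart.

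Only 1 of the 10 transporters passed the test, Slc7a6, which fell in KO. Slc3a2, its heavy chain, and Slc1a5 had higher values in both KO libraries than in both CTRL libraries, with adjusted p of 0.126 and 0.137. Slc7a5, Slc38a1, Slc38a2 and Slc43a1 overlapped between the genotypes. FPKM reached 1 in at least 2 libraries, the filter used, for 8 of the 10 transporters, and Slc1a4 and Slc7a11 did not pass it. By limma, 0 of the 8 tested were called higher, against 5.10% of all genes, and 1 was called lower, against 4.65%. Before adjustment, 2 of the 8 were higher and 1 lower at p under 0.05, against 16.3% and 18.4% of all genes. Limma-voom on the recovered reads also called 0 higher and 1 lower, against 7.69% and 8.84% of all genes. Both KO libraries lay above both CTRL libraries for 2 of the 8, against 29.0% of all genes, and below them for 2, against 35.5%. The median difference of the 8 was 0.044 on the log2 scale, beside -0.022 for all genes tested.

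The 10 carriers covered a wide range of levels. Slc1a5 had the highest mean over the 4 libraries at 97.9 FPKM, followed by Slc38a2 at 71.9 and Slc3a2 at 65.3 FPKM. These 3 made up 76.1% to 80.3% of the summed FPKM of the 10. Slc38a1 at 17.7, Slc7a5 at 16.3, Slc7a6 at 14.9 and Slc7a1 at 12.9 FPKM formed a second tier in which neighbours in the order overlapped over the 4 libraries. Slc43a1 followed at 2.41 FPKM, Slc1a4 at 0.874 and Slc7a11 at 0.0292 FPKM, each separate from its neighbours. Slc38a2 and Slc3a2 also overlapped, whereas Slc1a5 stood above both in every library. Among the 19888 genes above 0 in any library, 96.5% had a mean below that of Slc1a5, 75.8% below that of Slc7a5 and 19.6% below that of Slc7a11. These orders rest on gene lengths that the authors used and that were not stated.

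**Figure D1:**
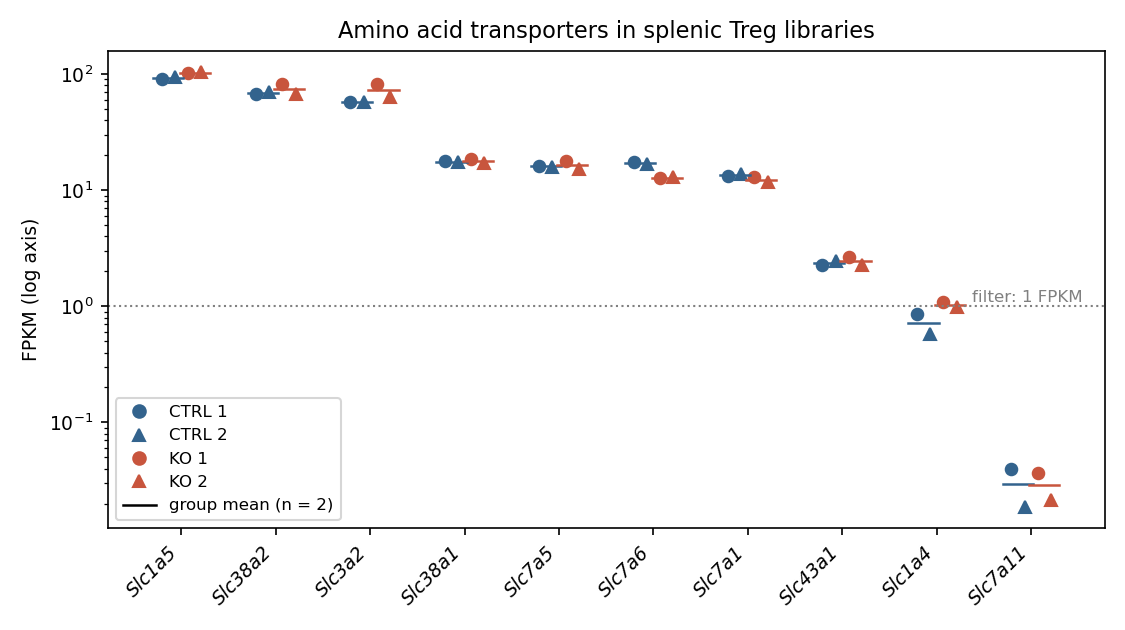
Levels of the 10 amino acid transporters in FPKM (log axis) in each of the 4 libraries, in order of their mean. Circles and triangles are replicates 1 and 2, blue is CTRL, orange is KO, bars are group means (n = 2 libraries) and the dotted line is the filter of 1 FPKM. Slc1a5, Slc38a2 and Slc3a2 sit near 100 FPKM or somewhat below it, Slc7a11 near the bottom at 0.0188 to 0.0396 FPKM, and Slc7a6 is the carrier whose KO points lie clearly below its CTRL points.

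The CD98 heavy chain Slc3a2 (ENSMUSG00000010095, GRCm38 chr19:8706882-8723369, minus strand) was at 57.0 and 57.2 FPKM in the CTRL libraries and at 82.9 (KO 1) and 64.0 FPKM (KO 2) in the KO libraries. The CTRL libraries were nearly equal, and the KO libraries were both above them but far apart. The means were 57.1 ± 0.180 in CTRL and 73.5 ± 13.4 FPKM in KO (SD, n = 2), a ratio of 1.29. The log2 difference was 0.35 (SE 0.13, 95% confidence interval 0.023 to 0.67), which did not pass the threshold (limma, adjusted p = 0.126). KO 1 decided its size, for without KO 1 the difference was 0.16 and without KO 2 it was 0.53. KO 1 also held the highest levels of myeloid, plasma cell and erythroid markers, at 316.4, 57.0 and 38.5 FPKM, where KO 2 held 123.5, 26.8 and 11.4 FPKM. The same markers were also higher in CTRL 1, with 245.6, 47.1 and 22.7 FPKM, than in CTRL 2, with 150.4, 20.2 and 4.16 FPKM. Whether other cells had a part in the Slc3a2 level of KO 1 was not tested.

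The light chain Slc7a6 (ENSMUSG00000031904, chr8:106168857-106198706, plus strand) was at 17.3 and 16.7 FPKM in CTRL and 12.7 and 12.9 FPKM in KO, from at least 1674 to 2156 reads. The libraries of each genotype were close to each other and the genotypes did not overlap. The mean was 17.0 ± 0.463 FPKM in CTRL and 12.8 ± 0.138 FPKM in KO (SD, n = 2), a change of -24.7%. On the log2 scale Slc7a6 fell by 0.38 (SE 0.064, 95% confidence interval -0.55 to -0.22) and passed the threshold (limma, adjusted p = 0.0386). By unadjusted p it ranked 518 among the 11399 genes, of which 1111 were called. With no filter on low values its adjusted p was 0.0861 and no gene was called, and with any 1 library left out its difference was -0.41 to -0.36 with adjusted p of 0.116 to 0.147. At most 1 gene of all was called once a library was left out, and neither Myc nor any gene of the amino acid lists below was called then.

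The leucine carrier Slc7a5 (ENSMUSG00000040010, chr8:121881150-121907694, minus strand) was at 16.1 and 16.0 FPKM in CTRL and 17.8 and 15.3 FPKM in KO. The KO libraries lay on either side of the CTRL libraries. The log2 difference was 0.043 (SE 0.088), and the 95% confidence interval of -0.18 to 0.27 leaves room for a moderate change in either direction (limma, adjusted p = 0.763). A predicted gene lies across it on the other strand and shares no exon with it. The genes whose values over the 4 libraries were most like those of Slc7a5 were Tmem39a, Ppp2r2d, which encodes a regulatory subunit of protein phosphatase 2A, and Kbtbd4, which encodes an adaptor of a ubiquitin ligase. Their Euclidean distances from Slc7a5, over centred log2 values, were 0.023, 0.029 and 0.030 among the 8401 genes whose mean over the 4 libraries was above 5 FPKM. With 4 libraries this likeness is a description only.

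Slc7a11, the cystine carrier whose start region held the amino acid response core on both strands, was listed at 0.0396 and 0.0188 FPKM in CTRL and 0.0368 and 0.0214 FPKM in KO. These values came from at least 12, 6, 12 and 7 reads over the gene (ENSMUSG00000027737, chr3:49892526-50443614, minus strand). Replicate 1 was the higher in both genotypes, and no difference between genotypes could be seen at this depth.

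The levels of light and heavy chains were set against each other within each library. Slc7a6 was at 1.08 and 1.04 times the level of Slc7a5 in the CTRL libraries, but at 0.713 and 0.841 times in the KO libraries. In CTRL libraries both light chains had about the same FPKM, whereas in both KO libraries Slc7a5 had the higher FPKM. Which chain stands higher rests on the gene lengths behind the FPKM, which were not stated. Slc7a5 relative to Slc3a2 was 0.282 and 0.279 in CTRL against 0.215 and 0.240 in KO. Slc7a5 and Slc7a6 together, relative to Slc3a2, were 0.586 and 0.571 in CTRL against 0.368 and 0.441 in KO. The sum of Slc7a5 and Slc7a6 was 33.4 and 32.7 FPKM in CTRL and 30.5 and 28.2 FPKM in KO. Other light chains are in neither this sum nor the ratios, so they do not give the total of light chains. Slc7a10, a light chain described below, was higher in both KO libraries, at 10.5 and 9.45 FPKM in CTRL and 16.1 and 12.6 FPKM in KO. The ratios above are within a library and do not change with its scaling. By an exact permutation test each of the 3 ratios gave a two-sided p of 0.333, the smallest that 2 against 2 libraries allow.

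**Figure D2:**
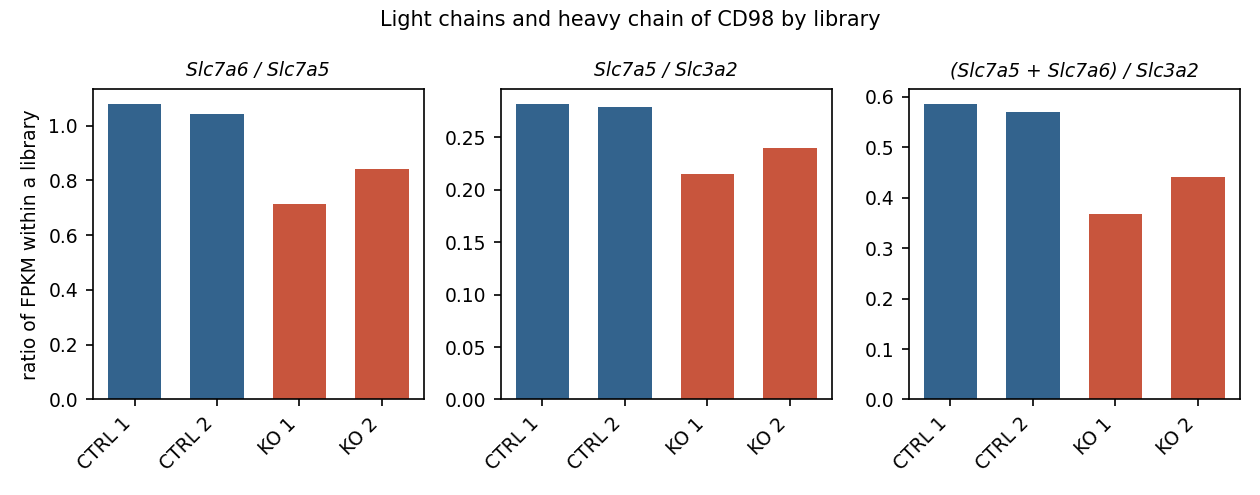
Ratios of FPKM within each library for the light chains Slc7a6 and Slc7a5 and the heavy chain Slc3a2 of CD98. Each bar is 1 library, blue for CTRL and orange for KO, and each axis starts at 0. In all 3 ratios both KO bars are lower than both CTRL bars, with Slc7a6 over Slc7a5 at 1.08 and 1.04 in CTRL and 0.713 and 0.841 in KO.

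The carriers that work without the heavy chain were compared next. Slc7a1, the arginine and lysine importer (ENSMUSG00000041313, chr5:148327410-148399904, minus strand), was at 13.2 and 13.7 FPKM in CTRL and 12.9 and 11.8 FPKM in KO. Both KO libraries were below both CTRL libraries, by a small margin. The log2 difference was -0.11 (SE 0.075, 95% confidence interval -0.31 to 0.077, limma, adjusted p = 0.332). It was -0.013 once each library's trend with exon length was removed, a setting added after the data had been seen that also moved other carriers with long transcripts. Slc43a1, the facilitated carrier whose start region held the E-box (ENSMUSG00000027075, chr2:84838850-84863594, plus strand), was at 2.27 and 2.44 FPKM in CTRL and 2.66 and 2.27 FPKM in KO. Its KO libraries spanned the CTRL values, and the difference was 0.044 (SE 0.11, 95% confidence interval -0.25 to 0.34, limma, adjusted p = 0.815).

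The exchangers of small neutral amino acids were at opposite ends of the range. Slc1a5, the glutamine exchanger and the most abundant of the 10 (ENSMUSG00000001918, chr7:16781340-16798274, plus strand), was at 91.1 and 95.2 FPKM in CTRL and 102.1 and 103.3 FPKM in KO. Both KO libraries were above both CTRL libraries, with means of 93.1 ± 2.87 and 102.7 ± 0.839 FPKM (SD, n = 2), a difference of 10.3%. The log2 difference was 0.14 (SE 0.053, 95% confidence interval 0.0035 to 0.28) and did not pass the threshold (limma, adjusted p = 0.137). After quantile normalization, which forces the libraries to 1 distribution, it was 0.038. Slc1a4, its close relative (ENSMUSG00000020142, chr11:20302180-20332713, minus strand), was at 0.854 and 0.581 FPKM in CTRL and 1.08 and 0.977 FPKM in KO, from at least 110, 79, 150 and 136 reads. Both KO libraries were higher, with a ratio of means of 1.43, but the gene did not pass the filter. When no filter was set its log2 difference was 0.24 (SE 0.11, limma, adjusted p = 0.314). Slc1a4 stood at 0.610% to 1.06% of the level of Slc1a5 within a library.

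The sodium-coupled glutamine importers lie next to each other on chromosome 15, Slc38a1 at chr15:96571418-96642913 (ENSMUSG00000023169) and Slc38a2 at chr15:96687392-96699730 (ENSMUSG00000022462), both on the minus strand. Slc38a1 was at 17.8 and 17.4 FPKM in CTRL and 18.4 and 17.2 FPKM in KO. The libraries of both genotypes overlapped, and the difference was 0.016 (SE 0.067, 95% confidence interval -0.15 to 0.19, limma, adjusted p = 0.884), or 0.17 with the exon length trend removed (adjusted p = 0.159). Slc38a2, a known target of the amino acid response, was at 67.6 and 69.6 FPKM in CTRL and 82.4 and 67.9 FPKM in KO. KO 1 alone stood above the other libraries, and KO 1 was also the highest library for Slc3a2. The Slc38a2 difference was 0.12 (SE 0.10, 95% confidence interval -0.14 to 0.38, limma, adjusted p = 0.436), and without KO 1 it was -0.015. The ratio of Slc38a1 to Slc38a2 was 0.264, 0.250, 0.224 and 0.254 in CTRL 1, CTRL 2, KO 1 and KO 2, with overlap between the genotypes.

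**Figure D3:**
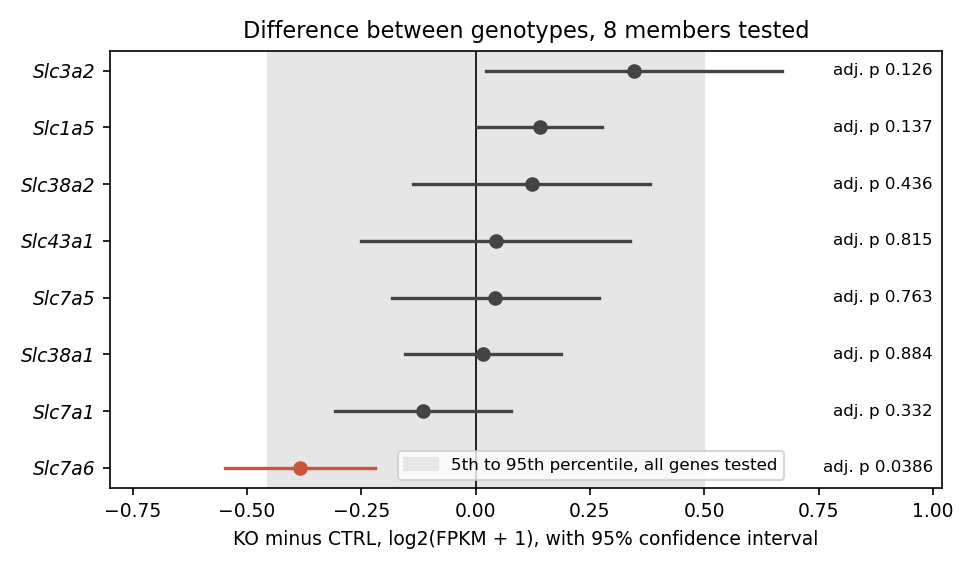
Difference between KO and CTRL on the log2(FPKM + 1) scale for the 8 transporters tested, with the 95% confidence interval from limma and the adjusted p at the right. Orange marks an adjusted p under 0.05, and the grey band spans the 5th to the 95th percentile of the 11399 genes tested, -0.45 to 0.50. Only the interval of Slc7a6, -0.55 to -0.22, belongs to a gene past the threshold, and all 8 point estimates lie within the band.

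Myc, the transcription factor known to drive several of these carriers, was at 65.4 and 64.9 FPKM in CTRL and 41.3 and 47.6 FPKM in KO. It fell by 0.54 on the log2 scale (SE 0.082, limma, adjusted p = 0.0355). The differences of the carriers ranged from -0.38 for Slc7a6 to 0.35 for Slc3a2. A link between the fall of Myc and these values was not tested. Where KO 1 was left out, Slc7a5, Slc38a1, Slc38a2 and Slc43a1 changed sign, so that no direction is given for these 4.

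Other carriers of the plasma membrane and the lysosome were compared from a list of 41 genes, of which 16 passed the filter. By limma 0 were called in either direction, against 5.10% of all genes higher and 4.65% lower. Before adjustment 2 were higher and 1 lower at p under 0.05, against 16.3% and 18.4% of all genes, and limma-voom called 1 higher and 1 lower, against 7.69% and 8.84%. Slc7a3, which passed the filter only through its KO libraries, is 1 of the 2 higher and the higher call of limma-voom, so the filter favoured that direction for it. The median difference was -0.011, near the -0.022 of all genes, and its sign changed with the scaling. The genes at p under 0.05 before adjustment are named here after their values were seen. Slc7a10, another light chain of Slc3a2, which carries small neutral amino acids, was at 10.5 and 9.45 FPKM in CTRL and 16.1 and 12.6 FPKM in KO, with a difference of 0.48 (SE 0.13, limma, adjusted p = 0.0738). Slc7a3, a cationic amino acid carrier of the same family as Slc7a1, was at 0.424 and 0.414 FPKM in CTRL and 1.04 and 1.06 FPKM in KO (limma, adjusted p = 0.0656). Slc38a9, a lysosomal carrier that reports arginine to mTORC1, was at 6.15 and 5.76 FPKM in CTRL and 4.47 and 4.32 FPKM in KO (limma, adjusted p = 0.0575).

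A list of 38 genes on amino acid sensing held sensors, regulators upstream of mTORC1 and subunits of mTORC1 itself. Of these, 36 were tested, and 2 were called higher and 0 lower, against 5.10% and 4.65% of all genes. Their median difference was -0.10. It was nearer to that of all genes in other settings, at -0.032 with the exon length trend removed and -0.047 after quantile normalization. Castor1, an arginine sensor that restrains mTORC1, rose from 18.9 and 19.7 FPKM in CTRL to 27.8 and 26.0 FPKM in KO, a difference of 0.46 (SE 0.066, limma, adjusted p = 0.0351). Tbc1d7, a subunit of the TSC complex, an inhibitor of mTORC1, rose from 4.49 and 4.41 to 6.17 and 6.59 FPKM, a difference of 0.44 (SE 0.083, limma, adjusted p = 0.0432). Both KO libraries were above both CTRL libraries for 7 of the 36, against 29.0% of all genes, and below them for 18, against 35.5%. Before adjustment 4 were higher and 12 lower at p under 0.05, against 16.3% and 18.4% of all genes. With limma-voom the calls were 1 higher, Castor1, against 7.69% of all genes, and 5 lower, Bmt2, Rptor, Rragd, Sesn1 and Tsc1, against 8.84%, the last 5 named after their values were seen.

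The amino acid response through GCN2 and ATF4 was represented by 26 genes, of which 18 were tested. With 2 called higher and 0 lower, against 5.10% and 4.65% of all genes, the median difference was 0.14. Before adjustment 4 were higher and 0 lower at p under 0.05, against 16.3% and 18.4% of all genes, and limma-voom called 2 higher and 0 lower, against 7.69% and 8.84%. Cebpb, a transcription factor that ATF4 induces, rose from 33.6 and 33.4 FPKM in CTRL to 59.7 and 48.9 FPKM in KO, a difference of 0.67 (SE 0.10, limma, adjusted p = 0.0365). Phgdh, the first enzyme of serine synthesis, rose from 55.0 and 59.0 to 73.0 and 77.1 FPKM, a difference of 0.39 (SE 0.064, limma, adjusted p = 0.0379). The sign of the median depended on which genes were tested, for it was -0.014 over genes whose mean passed 5 FPKM in a genotype. With any 1 library left out and the usual filter, it was 0.054 to 0.13.

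Of 26 enzymes that use imported amino acids, 23 were tested, and 1 was called higher and 2 lower, against 5.10% and 4.65% of all genes. The median difference was 0.0049, and its sign changed with the scaling. Bckdhb, a subunit of the complex that breaks down branched-chain amino acids, fell from 11.9 and 11.3 FPKM in CTRL to 7.25 and 7.42 FPKM in KO, a difference of -0.60 (SE 0.072, limma, adjusted p = 0.0346). Bckdk, the kinase that inhibits this complex, rose from 11.31 and 11.98 to 14.8 and 14.9 FPKM, a difference of 0.33 (SE 0.067, limma, adjusted p = 0.0486). Mat2a, which makes S-adenosylmethionine from methionine, fell from 58.0 and 56.8 to 41.5 and 43.5 FPKM, a difference of -0.42 (SE 0.056, limma, adjusted p = 0.0351). Of the 20 cytosolic aminoacyl-tRNA synthetases, which load amino acids onto tRNA, all were tested and 2 were called higher and 0 lower, against 5.10% and 4.65% of all genes, with a median difference of 0.037. Before adjustment 4 were higher and 3 lower at p under 0.05, against 16.3% and 18.4% of all genes, and limma-voom called 3 higher and 1 lower, against 7.69% and 8.84%. Hars, for histidine, rose from 36.5 and 33.9 to 44.6 and 45.7 FPKM (limma, adjusted p = 0.0408), and Gars, for glycine, from 42.6 and 42.2 to 50.5 and 53.5 FPKM (limma, adjusted p = 0.0465).

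**Figure D4:**
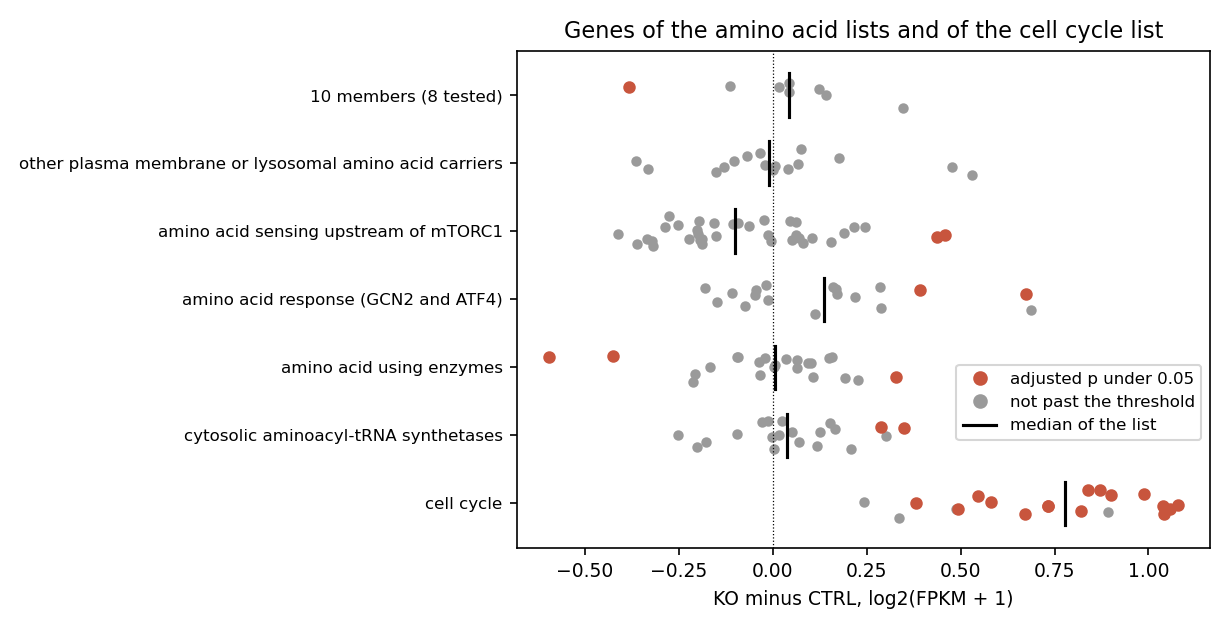
Difference between KO and CTRL on the log2(FPKM + 1) scale for each tested gene of the transporters, the other amino acid lists and the cell cycle list, 1 point per gene, with height within a row used only to separate points. Orange marks an adjusted p under 0.05 (limma), the black bar is the median of the list and the dotted line is 0. Medians of the amino acid lists lie between -0.10 and 0.14, and that of the cell cycle list is at 0.78.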

How the data were processed

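Splenic Treg cells were measured by RNA-seq in 4 libraries, 2 per genotype. Per the methods and the submitters' processing notes, the authors mapped 150 bp read pairs to mm10 (GRCm38) with HISAT2 2.2.1, counted them per gene with featureCounts 2.0.1 and compared genotypes with edgeR 3.34.0. The deposited values were FPKM, scaled by the authors for gene length and library total. The gene length, annotation version and use of strand are not given in the sources used here. Of the identifiers, 50 occurred on more than 1 line. Control columns, named WT with a number, were read as the CTRL library of that number.

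The FPKM of a gene in different libraries could be written as whole reads times a common step, and this gave a lower bound on reads. That held for 19888 of 19888 genes above 0 (100%), within 0.001 reads plus 2e-08 of the count. The search went up to 2000000 reads, where this tolerance is wide enough to match unrelated values. The full rate is therefore no test of the recovered reads. Relative depth was 1, 1.06, 1.08 and 1.08 in CTRL 1, CTRL 2, KO 1 and KO 2. The median standard error of a log2 difference, 0.087, shows the precision that 2 libraries per genotype allow.

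KO was compared with CTRL by limma 3.58.1 (R 4.3.3) on log2(FPKM + 1), with an intensity trend. A gene was tested if 2 or more libraries reached 1 FPKM, which left 11399 genes. This scale understates changes of low genes. Tests were two-sided, with Benjamini-Hochberg adjustment over all genes tested and a threshold of 0.05. The edgeR test was not repeated because the deposited values were not counts. Positions came from GENCODE vM21 and start regions from RefSeq (GRCm38.p6). Genes named were the 10 transporters, Setd2, Myc, from each amino acid list at most 3 genes past the threshold per direction by smallest p, and the 3 genes nearest to Slc7a5. List genes outside this rule are marked in the text as named after their values were seen. The transporters and the lists were chosen with earlier results of these data known. The alternatives were 10 settings chosen beforehand, leaving out each library in turn, and a correction for exon length by a lowess curve per library, chosen after seeing the data. The procedure was tested on simulated counts with the same dispersion for every gene and changes larger than those of the transporters. That test does not bear on how firm the calls here are. Python 3.11.15, numpy 2.4.6, pandas 2.3.3 and matplotlib 3.10.9 were used outside R.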

Additional observations from a re-analysis of the deposited data

How the results depend on the processing

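With 2 libraries per group, p-values measure only the spread between pools of mice, and intervals are wide. Slc7a6 kept its direction under all 11 settings and all 4 omissions of a library, and passed the threshold in 10 of the 11 (-0.41 to -0.36, adjusted p = 0.0185 to 0.0861 by limma). Slc3a2 (0.28 to 0.36), Slc1a5 (0.038 to 0.16) and Setd2 passed in 0 of the 11. With no filter on low values, the difference of Slc7a6 was -0.38 but not past the threshold, and 0 transporters, 0 genes in all and 0 genes of every amino acid list were called. With any 1 library left out, the calls were 0 transporters, 0 genes of every amino acid list and 0 to 1 genes in each direction over all genes. The differences then ranged from -0.41 to -0.36 for Slc7a6, from -0.059 to 0.15 for Slc7a5, from -0.029 to 0.062 for Slc38a1, from -0.015 to 0.26 for Slc38a2 and from -0.038 to 0.13 for Slc43a1. Those of the last 4 turned negative without KO 1, and that of Slc38a1 also without CTRL 2 (-0.0011). The list medians ranged from -0.064 to 0.0088 for the other carriers, from -0.0011 to 0.053 for the enzymes and from -5.06e-05 to 0.093 for the synthetases. Those of the sensing list ranged from -0.17 to -0.066 and those of the amino acid response from 0.054 to 0.13.

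Under other settings the median of the other carriers was 0.0068 with median-ratio scaling and 0.025 with the exon length trend removed, that of the enzymes -0.0073 at the same summed FPKM, and that of the amino acid response -0.014 over genes with a mean FPKM above 5. With no variance trend 315 genes were called higher, with 1 other carrier, 1 response gene and 0 synthetases. Limma-voom on the recovered reads called 877 higher and 1008 lower, with 2 other carriers, 6 genes of the sensing list and 4 synthetases. The synthetases numbered 4 over genes with a mean FPKM above 5 and 1 after quantile normalization, and removal of the exon length trend left 321 genes called lower, with 515 higher. The share of higher calls among all calls was 52.3% as reported and 46.8% to 58.1% under the other scalings. In a fit with a replicate block, 968 genes were called higher and 805 lower, with 1 other carrier, Slc7a10, and Slc7a6 was again the only transporter called. Libraries with the same number deviated from their genotype's mean with r = 0.342 (Pearson) and rho = 0.055 (Spearman) across 11399 genes, which are not independent replicates, and nothing in the labels ties the numbers to shared mice or days. The cause of these changes was not tested.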
